A study of Mus musculus with 6 samples.

Results

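The mitochondrial ribosomal proteins are taken here as the genes named Mrpl (for the large subunit) or Mrps (for the small subunit) followed by a number. Membership followed from the symbol alone, with each gene represented by its brightest probe set. The set itself was chosen with earlier results of these data known. Of the 18194 genes measured on the arrays 76 met the symbol rule, 47 Mrpl and 29 Mrps. Their RNA was measured in quadriceps of mice in which Pofut1 was deleted in skeletal muscle and in controls. The product of Pofut1 is an enzyme of the endoplasmic reticulum that attaches O-fucose to EGF-like repeats, including those of Notch receptors. The knockout group was 3 samples carrying skeletal α actin cre with Pofut1flox/flox, and the control group was 3 samples carrying the same skeletal α actin cre with wild-type Pofut1. All were of strain C57/Bl6 and 2 months old. The Cre was therefore present in both groups, and its promoter acts in muscle fibres, so other cells in the muscle are not its target. Each sample was hybridised to 1 array, and values are linear probe set intensities as deposited, compared on the log2 scale as knockout minus control. In whole muscle RNA, fewer cells of a type and less RNA per cell cannot be told apart.

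The mitochondrial ribosome translates the few proteins that mitochondrial DNA encodes, all of them subunits of the respiratory chain and ATP synthase. Its RNAs come from mitochondrial DNA, while its proteins are encoded in the nucleus, made in the cytosol and imported. Skeletal muscle is rich in mitochondria, and the nuclear genes of mitochondrial proteins are known targets of the transcription factors NRF1, GABP (an ETS factor) and YY1 and of the coactivator PGC-1α.

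Promoter sequence was found in RefSeq (assembly GRCm38.p6) for 67 of the 76 members. The windows below run from 250 bases before each gene's start to 30 after it and are shown for 4 of the genes whose knockout and control values did not overlap. Each is on the gene's own strand, 5′ to 3′, and capitals mark matches to 3 motifs searched on both strands: GCGCA and GCGC with 1 base of any kind between them for NRF1, CCGGAAG for ETS factors and AAGATGGC for YY1. The last 2 motifs can share the letters AAG.
Mrpl3, chr9:105053018-105053297, + strand: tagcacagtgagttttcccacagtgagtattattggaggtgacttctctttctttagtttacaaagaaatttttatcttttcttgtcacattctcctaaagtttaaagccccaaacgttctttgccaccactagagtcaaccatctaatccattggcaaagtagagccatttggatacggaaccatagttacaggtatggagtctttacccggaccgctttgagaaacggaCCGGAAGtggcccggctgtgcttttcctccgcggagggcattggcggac
Mrpl21, chr19:3282792-3283071, + strand: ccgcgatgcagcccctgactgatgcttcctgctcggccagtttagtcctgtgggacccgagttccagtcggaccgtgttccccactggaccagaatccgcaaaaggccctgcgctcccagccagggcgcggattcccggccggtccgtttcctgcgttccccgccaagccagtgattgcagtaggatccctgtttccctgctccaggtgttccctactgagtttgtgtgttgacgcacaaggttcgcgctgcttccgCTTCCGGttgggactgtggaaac
Mrps12, chr7:28741792-28742071, - strand: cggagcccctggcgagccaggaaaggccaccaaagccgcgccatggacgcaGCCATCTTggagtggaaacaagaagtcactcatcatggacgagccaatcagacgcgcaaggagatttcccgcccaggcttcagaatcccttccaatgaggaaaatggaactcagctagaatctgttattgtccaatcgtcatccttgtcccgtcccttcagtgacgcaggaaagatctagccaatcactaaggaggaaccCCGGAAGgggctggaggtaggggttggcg
Mrps26, chr2:130563507-130563786, + strand: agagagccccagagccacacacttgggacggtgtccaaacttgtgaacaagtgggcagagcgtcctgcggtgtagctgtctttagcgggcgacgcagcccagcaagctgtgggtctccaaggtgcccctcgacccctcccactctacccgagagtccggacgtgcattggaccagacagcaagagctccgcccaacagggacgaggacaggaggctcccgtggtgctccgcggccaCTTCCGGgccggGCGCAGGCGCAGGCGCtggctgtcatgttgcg
The Mrpl3 and Mrpl21 windows each held 1 ETS motif, the Mrps12 window held an ETS and a YY1 motif, and the Mrps26 window held 2 overlapping NRF1 motifs and an ETS motif. Over the full window of 300 bases, the ETS motif was present in 25 of 67 member promoters (37.3%), against 15.0% of the promoters of all 14369 measured genes that had one. The YY1 motif was present in 12 (17.9%) against 4.09%, and the NRF1 motif in 12 (17.9%) against 8.63%. At least 1 of the 3 was present in 41 members (61.2%) against 24.5%. A match is a description of letters and not of a bound site.

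Many of these genes also start next to another gene on the opposite strand. A divergent start within 1000 bases was found for 25 of the 67 members (37.3%), against 2334 of 14369 genes (16.2%). Mrps12 starts 147 bases from Sars2, the mitochondrial seryl-tRNA synthetase, Mrpl46 starts 42 bases from Mrps11, another member, and Mrpl43 starts 116 bases from Twnk, the mitochondrial DNA helicase.

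The arrays were not equal, which touches every result below. Pofut1 itself read 220.1, 231 and 194 in knockout and 301, 379.8 and 90.6 in control. The array labelled control replicate 3 thus lay below all 3 knockout arrays and went against its label, while both other controls lay above them. Neither the labels nor the annotation say whether this probe set falls inside the deleted exon, so its values do not check the deletion. The same array had a Gapdh 3′ to 5′ probe set ratio, a measure of RNA integrity, of 10.5, knockout replicate 2 had 3.70, and the other 4 lay between 1.73 and 1.97. By the Actb 3′ to 5′ ratio these 2 arrays were closer, at 5.85 and 4.34, and the other 4 lay between 1.67 and 1.83. The correlation of the array labelled control replicate 3 with the other arrays over all genes was 0.940 to 0.945, against 0.980 to 0.991 among the rest. Results are therefore given with and without it, and its part in them was not tested unless a value is given.

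All 76 members were above background, taken as an intensity of 87.5 (the 95th percentile of genes restricted to other tissues). Knockout and control did not differ past the threshold for any member: 0 of 76 had a limma adjusted p under 0.05, and 0 of 18194 genes did (0%). The lowest adjusted p was 0.971. Unadjusted p was under 0.05 for 0 members and for 469 genes (2.58%), and the lowest among members was 0.0578, for Mrpl41. Mean levels were lower in knockout for 51 members (67.1%) and higher for 25, with a median log2 difference of -0.085. Among all genes 53.7% had a lower mean and the median was -0.009, and among the 9456 genes above background 45.9% did, with a median of 0.027. Other limma fits of the same arrays also called 0 members, with an unadjusted p under 0.05 for 11 members when arrays were weighted (10.2% of all genes), for 7 with the Gapdh 3′ to 5′ ratio as covariate (6.43%) and for 7 without a trend in eBayes (4.32%). With array weights 58 members had a lower mean, against 54% of all genes and 60.8% of those above background. Without knockout replicate 2 the count was 40 of 76 (52.6%), below the 57.2% of all genes and above the 44.5% of those above background. The differences were small, under 0.1 on the log2 scale for 27 members and under 0.25 for 59. They ran from -0.58 for Mrpl2 to 0.55 for Mrpl22. The standard error was 0.10 to 0.46, with a median of 0.19, and the 95% interval lay within a 2-fold change either way for 69 members and passed it for 7.

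**Figure D1:**
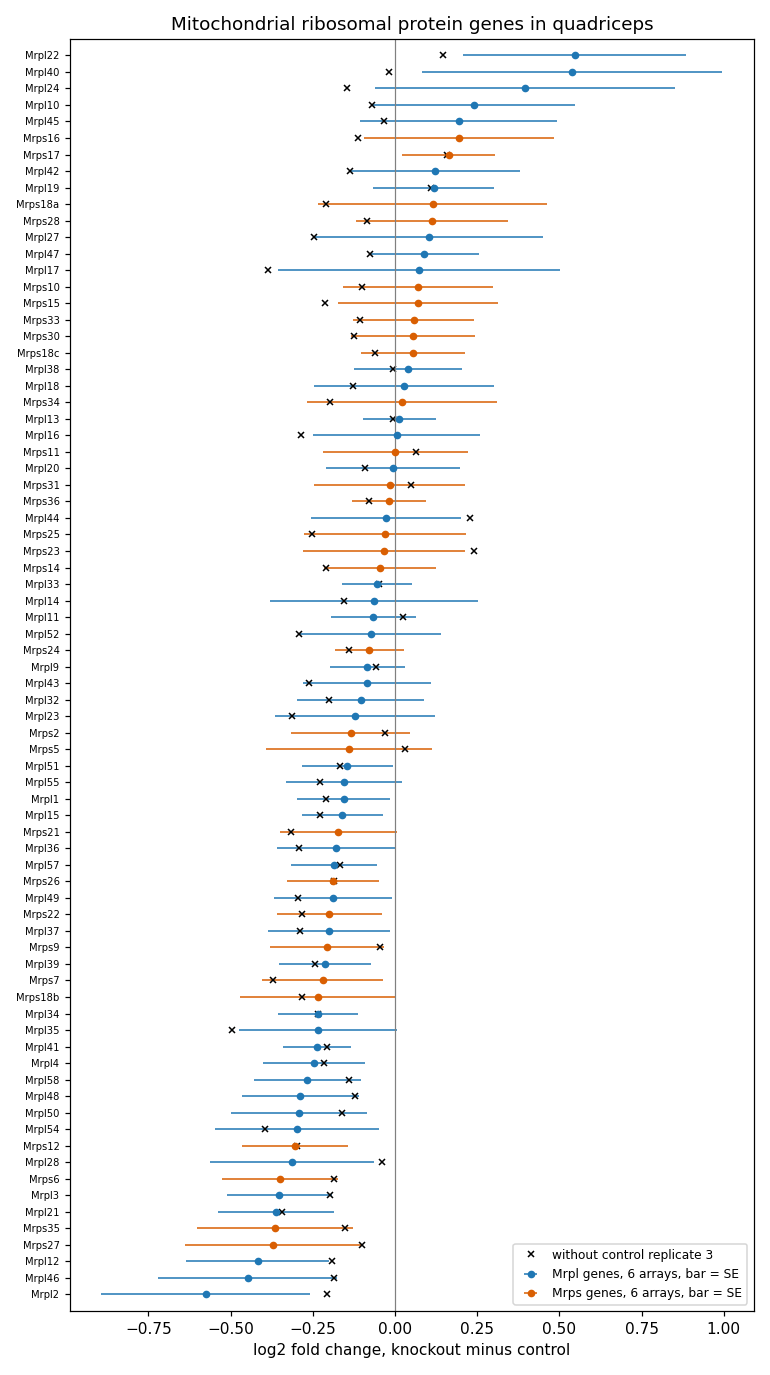
Log2 difference, knockout minus control, for each of the 76 members (points, with bars of 1 SE from limma, 3 arrays a group) and the value without control replicate 3 (crosses). Points run from -0.58 to 0.55 and 51 lie below 0, crosses lie below 0 for 67, and no member passed the threshold.

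Values of the 3 knockout arrays lay wholly below those of the 3 controls for 10 members (13.2%), and wholly above for 0. The same held for 5.68% and 3.33% of all genes, and for 7.39% and 4.35% of genes above background. The 10 were Mrpl2, Mrpl3, Mrpl4, Mrpl21, Mrpl34, Mrpl41, Mrpl57, Mrps6, Mrps12 and Mrps26, 7 from the large subunit and 3 from the small. Groups were separate in either direction for 9.01% of all genes. With values centred on array medians 7 members were separate, 6 lower and 1 higher (7.22% of all genes). There were 9 with the mean over probe sets (8.43%) and 10 with quantile normalization (10.1%). With fewer arrays separation is more frequent for every gene. Without knockout replicate 1, 2 or 3 there were 11, 16 and 20 members (15.2%, 18.1% and 15.7% of all genes), and without control replicate 1, 2 or 3 there were 16, 16 and 29 (16.0%, 18.4% and 24.5%).

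Among the large-subunit members of this kind, Mrpl41 had the lowest p. It read 1852, 1766 and 1870.3 in knockout and 2083, 2139.9 and 2249 in control, a log2 difference of -0.24 ± 0.10 (SE). Every knockout array was lower than every control array, and the 95% interval ran from -0.49 to 0.01. A second Mrpl41 probe set gave -0.34 ± 0.15. Mrpl3, a protein near the peptidyl transferase centre, read 1348, 1316 and 1297 in knockout and 1573, 1458 and 2087 in control. The knockout arrays were close together and below every control, of which the array labelled control replicate 3 was the highest. The log2 difference was -0.35 ± 0.16, and -0.20 without that array. A second probe set for Mrpl3 gave -0.34 ± 0.19 and another above background gave -0.07. Mrpl21 read 534, 430.0 and 614 in knockout and 681, 641 and 684 in control, with all 3 controls close together and above the knockouts. Its difference was -0.36 ± 0.18, and -0.34 without the array labelled control replicate 3.

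Mrpl4, at the polypeptide exit tunnel, read 370.4, 365 and 388 in knockout and 463, 409 and 463 in control, a difference of -0.25 ± 0.15. Mrpl34 read 981, 1021 and 1109.8 against 1245, 1191 and 1219, a difference of -0.23 ± 0.12. Mrpl57 read 754, 802 and 757 against 915, 818 and 898, a difference of -0.18 ± 0.13. In these 3 the groups were separate by the brightest probe set but near each other. A second Mrpl34 probe set read 237, 274 and 357 against 337, 321 and 278, with overlap, and gave -0.13 ± 0.22. A second Mrpl57 probe set read 133, 94.3 and 169 against 169, 167 and 560, and gave -0.96 ± 0.50, and the mean of both gave -0.57. Its highest value was on the array labelled control replicate 3. Mrpl2, also near the peptidyl transferase centre, had the largest lower estimate. It read 500.3, 413 and 510.5 in knockout and 541, 550.4 and 1174 in control. The groups did not overlap, yet the array labelled control replicate 3 stood far above the other 5. The difference was -0.58 ± 0.32, and -0.21 without that array.

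In the small subunit, Mrps12, a protein of the decoding centre, read 419.5, 363 and 459 in knockout and 504, 508 and 513 in control. The controls were almost equal and the knockouts lay below them, with a difference of -0.30 ± 0.16, and -0.30 without the array labelled control replicate 3. Mrps6 read 729, 684 and 685 against 798, 792 and 1117, a difference of -0.35 ± 0.18 that was -0.19 without that array. A second Mrps6 probe set gave the opposite sign, 0.32 ± 0.35. Mrps26 read 592, 579 and 600.2 against 623, 723 and 676, a difference of -0.19 ± 0.14. Mrps26 thus had tight knockouts below wider controls.

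**Figure D2:**
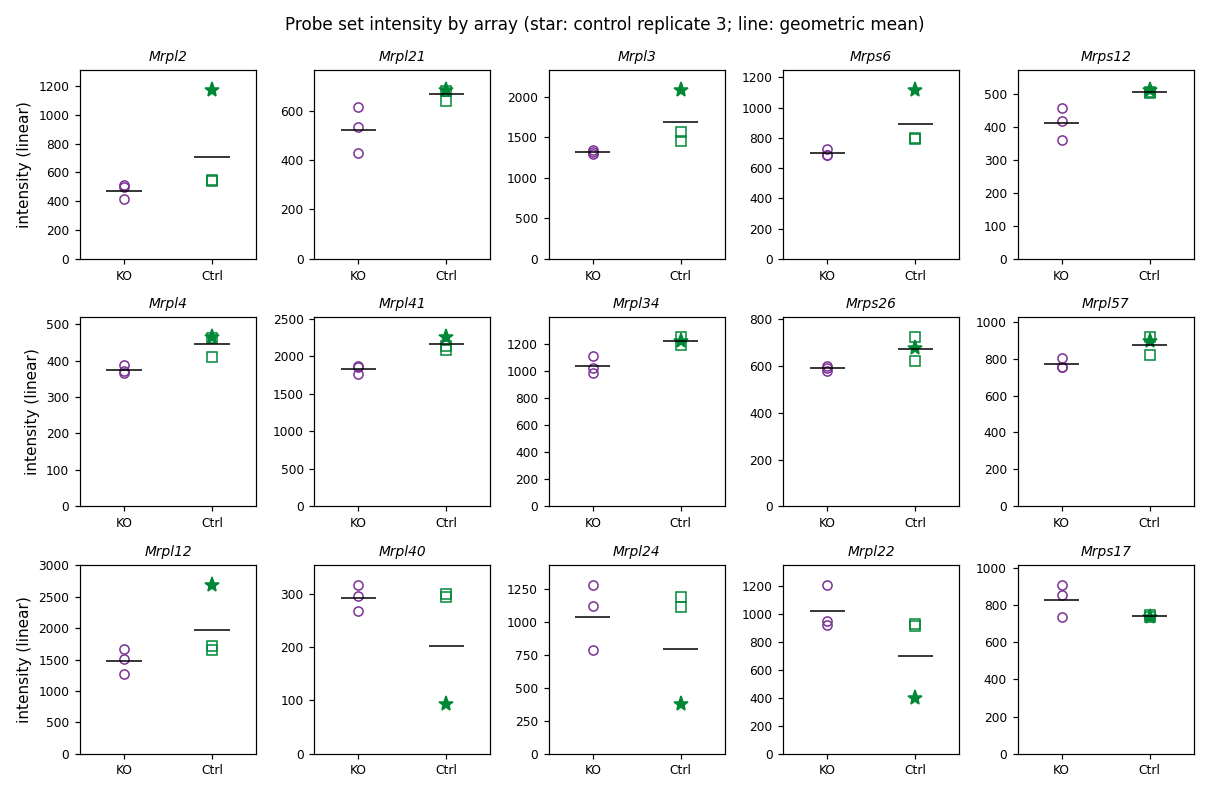
Linear intensity on each of 3 knockout (KO) and 3 control (Ctrl) arrays for the 10 members without overlap and 5 others, with lines at geometric means and a star for control replicate 3. Mrps12, Mrpl41 and Mrpl21 show separate groups, and Mrpl2 shows the array labelled control replicate 3 at 1174, apart from the other 5.

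At the other end, the 3 highest estimates were larger with the array labelled control replicate 3 than without it. Mrpl22, at the exit tunnel, read 1209, 948 and 925 in knockout and 927, 916 and 401 in control. The first 2 controls lay within or near the knockout values, and the difference of 0.55 ± 0.34 was 0.15 without the array labelled control replicate 3. Mrpl40 read 297, 267 and 317 against 293, 299.9 and 93.1, a difference of 0.54 ± 0.46 that was -0.02 without it. Mrpl24 read 1124, 784 and 1281 against 1111, 1193 and 374, a difference of 0.40 ± 0.46 that was -0.14 without it. For Mrpl40 and Mrpl24 the direction therefore turned with 1 array. Mrps17, a small-subunit protein, read 851, 733 and 907 against 737, 744 and 735. Of its knockouts 2 lay above all controls and 1 below them, and the difference was 0.16 ± 0.14, with 0.16 also without that array.

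Mrpl12, a stalk protein reported to bind the mitochondrial RNA polymerase, read 1506, 1269 and 1662 in knockout and 1713, 1644 and 2687 in control. One knockout array lay above the lowest control, and the difference was -0.42 ± 0.22, or -0.19 without the array labelled control replicate 3. Mrpl10, at the base of the same stalk, read 157, 161 and 173 against 181, 163 and 90. Its difference was 0.24 ± 0.31, and -0.07 without that array. Mrpl45, which helps hold the ribosome at the inner membrane, had 0.19 ± 0.30 and -0.03. Mrpl44, which has an RNase III-like fold, had -0.03 ± 0.23 and 0.23.

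The 3 paralogs Mrps18a, Mrps18b and Mrps18c shared a direction only without the array labelled control replicate 3. Mrps18b read 1014, 585 and 979 in knockout and 933, 1102 and 917 in control, so that 1 knockout array stood below all others and the groups overlapped. Its difference was -0.23 ± 0.24. Mrps18a had 0.11 ± 0.35 and Mrps18c had 0.05 ± 0.16. Without the array labelled control replicate 3, Mrps18b, Mrps18a and Mrps18c were all lower, at -0.28, -0.21 and -0.06. All 3 were also lower with array weights, with the Gapdh ratio as covariate and without knockout replicate 3. Without knockout replicate 2 all 3 were instead higher, at 0.02, 0.37 and 0.16. Mrps22 read 718, 792 and 634 against 922, 811 and 729, with a difference of -0.20 ± 0.16. Mrps16 had 0.19 ± 0.29, Mrps34 had 0.02 ± 0.29 and Mrps30, now placed in the large subunit, had 0.05 ± 0.19. Without the array labelled control replicate 3, Mrps16, Mrps34 and Mrps30 were at -0.11, -0.20 and -0.12.

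The remaining members named by the rule also overlapped between groups. Mrpl46 had a log2 difference of -0.45 ± 0.27 and Mrps27, a pentatricopeptide repeat protein, -0.37 ± 0.27. Mrps35 had -0.36 ± 0.24 and Mrpl28 had -0.31 ± 0.25. Without the array labelled control replicate 3 these 4 became -0.19, -0.10, -0.15 and -0.04. Mrpl19 had 0.12 ± 0.18 and Mrpl42 had 0.12 ± 0.26, which became 0.11 and -0.14.

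Large-subunit names as a whole had a median of -0.121, with 33 of 47 lower, and small-subunit names had -0.033, with 18 of 29 lower. Members with a bacterial counterpart in the large subunit had a median of -0.075 (18 of 28 lower), and the mitochondria-specific ones, with Mrps30 and Mrps18a counted among them, had -0.155 (15 of 21). In the small subunit the corresponding values were -0.078 (9 of 15) and -0.032 (9 of 12). Apart from Mrps30 and Mrps18a, members were placed in a subunit as their name has it, Mrps36 included. The differences between these classes were not tested.

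Without the array labelled control replicate 3, 67 of 76 members (88.2%) had a lower mean in knockout and the median was -0.164. Over the same 5 arrays, 52% of all genes had a lower mean, and 63.9% of genes above background did, with a median of -0.073. Those 5 arrays still include knockout replicate 2. With that array left out as well, a setting chosen after seeing the data, 53 of 76 members (69.7%) had a lower mean. In that setting 55% of all genes did, and 60.8% of those above background. Without only the array labelled control replicate 3, still 0 members passed and the lowest adjusted p was 0.802. There, 3 members had an unadjusted limma p under 0.05, all lower. Of all genes 5.99% had such a p, and 3.95% had it with a lower mean. These 3, singled out after their values were seen, were Mrpl35, Mrps7 and Mrpl16. Mrpl35 read 936, 842 and 885 in knockout and 1360.2 and 1153 in the 2 remaining controls, a difference of -0.50 with an unadjusted limma p of 0.0058, against 725 on the array left out. With all arrays its difference was -0.23 ± 0.24. These Mrpl35 values are from its brightest probe set, and its 2 others above background did not show such a separation. Without the array labelled control replicate 3, 1 of them read 566, 571 and 516 in knockout and 625 and 452 in control. The other also overlapped between groups there. With all arrays these 2 probe sets gave 0.25 ± 0.24 and -0.09 ± 0.51. Knockout values were wholly below the 2 controls for 27 members (35.5%) and wholly above for 2, Mrps23 and Mrpl44, against 14.2% and 10.3% of all genes and 20.1% and 8.04% of those above background.

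Members also differed between arrays of 1 group. Relative to the mean of the other 5 arrays, the median member was at -0.235 in knockout replicate 2, 0.096 in knockout replicate 3 and -0.045 in knockout replicate 1. In controls it was 0.147, 0.135 and -0.091. The array labelled control replicate 3 stood out by its spread, an SD over members of 0.563 against 0.177 to 0.232 on the other 5. This was not particular to the members, as the SD over genes above background was 0.729 there against 0.292 to 0.369. Among members, the array labelled control replicate 3 was the highest of 6 in 22 and the lowest in 27, so that it lay outside the range of the other 5 in 49. Against the other controls it ran from -1.67 for Mrpl40 to 1.11 for Mrpl2. Knockout replicate 2 instead shifted mostly one way, the lowest of 6 in 31 members and the highest in 1, and below the other knockouts in 65. The shares of all genes that were highest or lowest of 6 were not computed. Of the 9456 genes above background, 5198 were below the other knockouts on knockout replicate 2. The respiratory chain subunits and the cytosolic ribosomal proteins were also low on that array, at medians of -0.182 and -0.177. Over the 76 members, the deviation of the array labelled control replicate 3 from its group and that of knockout replicate 2 from its group had a Pearson r of 0.378, given as a description, since both arrays had the highest Gapdh ratios. Both were below their groups in 42 members and both above in 5. In 23 the array labelled control replicate 3 was above its group and knockout replicate 2 below, and in 5 the reverse. Taken singly, knockout replicate 2 was below its group in 65 members and the array labelled control replicate 3 in 48. Whether the 2 arrays shifted together was not tested, and the counts do not show it.

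**Figure D3:**
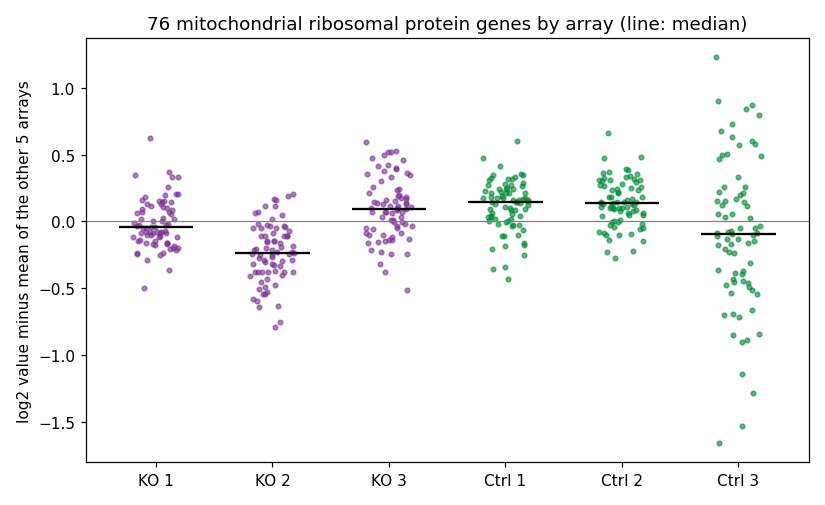
Log2 intensity of each member on each array minus its mean on the other 5 arrays, one point a member and a line at the median. Medians run from -0.235 to 0.147, and the spread is widest on the array labelled control replicate 3.

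Different probe sets of 1 gene were set side by side on the same array. For the 29 members with more than 1 probe set above background, the range among a gene's probe sets, each taken relative to the other 2 arrays of its group, had a median of 0.70 on the array labelled control replicate 3, and of 0.15 to 0.43 on the other 5. In 5 members, Mrpl15, Mrpl35, Mrpl44, Mrpl48 and Mrps23, that array was over 0.5 higher by 1 probe set and over 0.5 lower by another. Control replicate 1 had 2 such members, Mrpl35 and Mrpl44, and the other 4 arrays had 0, where controls 1 and 2 are each set against a mean that includes the array labelled control replicate 3. For Mrpl44 the brightest probe set read 2600.4 there, against 1401 and 1654 in the other controls. Another Mrpl44 probe set read 323 there, against 712 and 777. The 2 readings of 1 gene thus went opposite ways in the same RNA. Over all members, 45 further probe sets were above background, of which 25 had the sign of the brightest and 20 the opposite. The brightest probe set of 12 members carries the suffix x or s, which Affymetrix uses where probes can match more than 1 transcript, and Mrps12, Mrps6 and Mrpl28 are among them.

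Other genes of mitochondrial translation gave no call either, with 0 members past the threshold in any list below. Of 4 further ribosome proteins measured, Dap3, Ptcd3 and Chchd1 of the small subunit had differences of -0.03 ± 0.15, -0.18 ± 0.14 and 0.005 ± 0.22, and Gadd45gip1 of the large had -0.02 ± 0.24. Assembly and ribosomal RNA factors had a median of -0.132, with 19 of 29 lower. Among them Tfb1m, which dimethylates the small ribosomal RNA, read 243, 249 and 195 in knockout and 295, 285 and 303 in control, with no overlap and a difference of -0.37 ± 0.19. Mrm3, a ribosomal RNA methyltransferase, had -0.35 ± 0.21, also without overlap.

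Genes listed as translation factors had a median of -0.127, with 9 of 15 lower. Mss51, whose part in translation was not examined here, had 1.18 ± 0.52. Without the array labelled control replicate 3 it had 0.60, and its groups overlapped with all arrays. Mtif3, an initiation factor, read 421, 397 and 458 against 577, 479.6 and 606, with no overlap and a difference of -0.38 ± 0.17. Mitochondrial aminoacyl-tRNA synthetases had a median of -0.068, with 14 of 19 lower, and Lars2, for leucine, had -0.25 ± 0.13 without overlap, and Nars2, for asparagine and below background, had 0.33 ± 0.17. Genes of mitochondrial DNA upkeep and transcription had a median of 0.013, with 7 of 14 lower, Trmt10c and Elac2, which process mitochondrial transfer RNA, at -0.26 ± 0.19 and -0.42 ± 0.32, Polrmt at -0.06 ± 0.18 and Tfam at 0.04 ± 0.20. Respiratory chain subunits had a median of -0.045 with 55 of 76 lower, led by Atp5d at -0.24 ± 0.09 and Ndufv1 at -0.24 ± 0.09. Cytosolic ribosomal proteins had 0.006 with 20 of 46 lower, led by Rpsa at -0.32 ± 0.09 and Rpl38 at -0.12 ± 0.10. Without the array labelled control replicate 3 the medians of respiratory chain and cytosolic ribosome were -0.062 and -0.114.

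**Figure D4:**
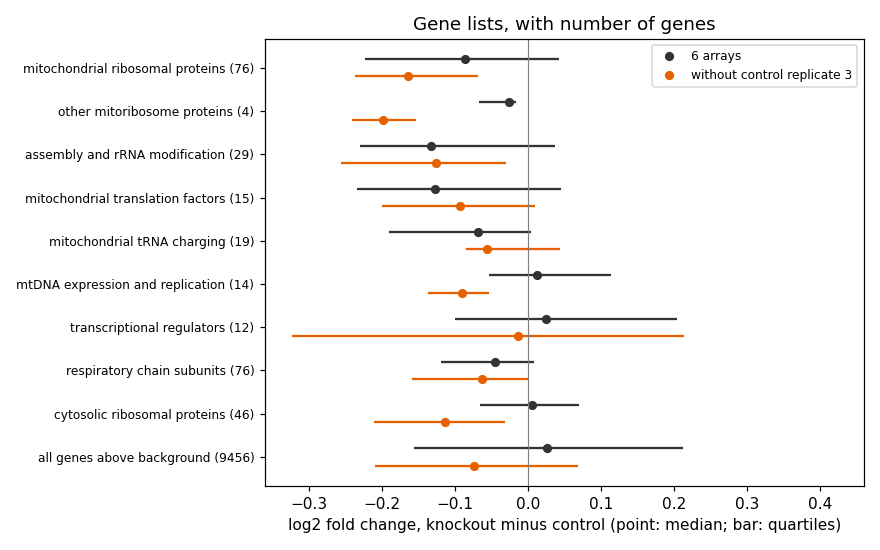
Median log2 difference, knockout minus control, of the members and of each other list, with bars from the lower to the upper quartile, for all 6 arrays and without the array labelled control replicate 3. The members are at -0.085 and -0.164, the cytosolic ribosomal proteins at 0.006 and -0.114.

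The known regulators did not pass the threshold. Ppargc1a, which encodes PGC-1α, read 656, 995 and 655 in knockout and 1082, 856 and 933 in control. Of the knockouts 2 lay below every control and 1 among them, and the difference was -0.34 ± 0.21, or -0.35 without the array labelled control replicate 3. Ppard, a nuclear receptor of fatty acid use, had -0.39 ± 0.23. Gabpa, the ETS subunit of GABP, had 0.20 ± 0.23, Esrra 0.10 ± 0.20 and Nrf1, which was below background, 0.02 ± 0.14. Yy1 read 1671, 1680.3 and 1418 against 1401, 1335 and 514, a difference of 0.68 ± 0.38 that was 0.21 without that array. Members with an ETS motif had a median difference of -0.15 (25 genes) and those without it -0.08 (42). For YY1 these were -0.18 (12) and -0.07 (55), and for NRF1 -0.14 (12) and -0.08 (55). Without the array labelled control replicate 3, the medians with and without the motif were -0.18 and -0.15 for ETS, -0.25 and -0.16 for YY1 and -0.18 and -0.16 for NRF1. These gaps were not tested. Partners across a divergent start had a median of -0.04, with 14 of 25 lower. Sars2, opposite Mrps12, had -0.05 ± 0.19, and Mrps11, opposite Mrpl46, had 0.00 where Mrpl46 had -0.45.

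Markers showed muscle in every sample, with 12 of 12 fibre genes above background and a summed intensity of 105798 to 109742 in knockout and 97132 to 102898 in control. The 7 slow-fibre markers varied within groups, from 8421 to 13976 in knockout and from 2057 to 13605 in control, where the lowest was control replicate 1 and the highest the array labelled control replicate 3. Endothelial markers (7 of 7 above background) summed to 2202 to 2299 against 1860 to 2103, smooth muscle markers (5 of 6) to 2052 to 2356 against 1887 to 2079. Macrophage markers (7 of 7) ran from 3455 to 5643 against 3873 to 6310, fibroblast markers (6 of 6) from 10916 to 15570 against 12204 to 13979 and adipocyte markers (4 of 5) from 1366 to 3852 against 810.1 to 2287. Erythroid markers (1 of 2) ran from 115 to 167 against 108 to 259, and brown adipocyte markers (mean above background in 0 of 3) from 142 to 561 against 129 to 150.3. Knockout replicate 3 gave the 561, with Cidea at 321 and Ucp1 at 202, both above background on that array. The part of fibre type or of these cells in the members' differences was not tested.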

How the data were processed

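Quadriceps RNA of 3 knockout and 3 control samples was measured on Affymetrix arrays. The authors used GCOS and RMA, per the submitters' processing notes, in versions that no label names, and deposited probe set intensities on a linear scale (37.2 to 16069). Near-equal array medians (56.6 to 58.6) with unequal upper quartiles (146 to 182) leave the authors' final scaling unknown. RMA compresses differences of dim probe sets. The deposited intensities were log2-transformed here with no pseudocount.

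Of 45101 probe sets, 34958 had 1 gene symbol in the platform annotation, 932 had several and 9211 were not listed. Entrez identifiers matched RefSeq GRCm38.p6 for 34754, and 0 symbols changed. Each of 18194 genes was represented by its probe set with the highest mean over 6 arrays. The 76 members had 156 such probe sets, 42 members more than 1. A further 4 were shared with another gene, which leaves Mrpl30 and Mrpl53 without a probe set of their own.

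Groups were compared in R 4.3.3 by a two-sided limma 3.58.1 test (lmFit, then eBayes with a mean-variance trend). Adjusted p is Benjamini-Hochberg over the 18194 genes, and calls needed an adjusted p under 0.05. The script was tested on simulated data. Separate animals are not named in the labels, and p-values then measure only how far these samples differ, which may be technical. Precision is limited by the number of arrays: an exact permutation p of 3 against 3 cannot go under 0.1.

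Members and lists were chosen with earlier results of these data known, and Mrpl47 was added to the list of large-subunit proteins with bacterial counterparts after the values were available. Background used 42 genes restricted to other tissues. Members were named if past the threshold, without overlap, among the 10 highest or lowest estimates, or in a set of 12 chosen by function. From each other list the 2 genes with the smallest p were named, beside the regulators and Pofut1. Alternatives changed the normalization, filter, probe set rule, eBayes trend, array weights, Gapdh ratio as covariate, replicate block and the arrays included.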

Additional observations from a re-analysis of the deposited data

How the results depend on the processing

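No setting gave a call among members or among all genes by limma. In all 16 settings 33 members were lower and 2 (Mrpl22 and Mrps17) higher. The share of all genes that keep the same sign was not computed. The replicate block, eBayes without trend and the background filter leave the members' estimates unchanged, so their signs there were fixed in advance. Centring on array medians left the estimates almost unchanged and turned 0 signs, so it adds little to that count. The median of the members was below 0 in every setting. It was -0.103 with quantile normalization, -0.098 with array weights, -0.166 with the Gapdh ratio as covariate, -0.057 with the mean over probe sets and -0.085 without both arrays of highest ratio, a setting chosen after seeing the data. Leaving out each array in turn gave a median of -0.164 to -0.026, 40 to 67 members with a lower mean and 11 to 29 members without overlap. The fewest lower were without knockout replicate 2, and both highest counts were without control replicate 3. With the replicate block the median was -0.085 and 0 members were called. Deviations of same-numbered samples from their groups had correlations of 0.19, -0.15 and -0.11 over all genes. With 3 arrays a group, and control replicate 3 far from its group, these cannot show whether the numbers pair samples. Of all 76 members, 19 turned sign with array weights, 9 with the mean over probe sets, 18 with the ratio covariate, 18 without both arrays, 3 with quantile normalization and 5 to 26 when 1 array was left out. Values follow for the 31 members named by the rule only. With array weights those that turned were Mrpl10 at -0.070, Mrpl44 at 0.27, Mrps16 at -0.036, Mrps18a at -0.032, Mrps18c at -0.0085, Mrps30 at -0.10 and Mrps34 at -0.12. With the mean over probe sets they were Mrpl19 at -0.12 and Mrpl44 at 0.13. With the ratio covariate they were Mrpl42 at -0.072, Mrpl44 at 0.11, Mrps16 at -0.012, Mrps18a at -0.13, Mrps18c at -0.036, Mrps30 at -0.056 and Mrps34 at -0.14. Without both arrays they were Mrpl10 at -0.060, Mrpl44 at 0.27, Mrps30 at -0.10 and Mrps34 at -0.071. Other probe sets gave Mrpl19 at -0.55 and -0.017, Mrpl44 at 0.41 and 0.17 and Mrps6 at 0.32. Leaving out 1 array gave -0.071 to 0.43 for Mrpl10, -0.22 to 0.23 for Mrpl44, -0.11 to 0.37 for Mrps16, -0.21 to 0.37 for Mrps18a, -0.061 to 0.16 for Mrps18c, -0.12 to 0.16 for Mrps30, -0.20 to 0.16 for Mrps34, -0.14 to 0.31 for Mrpl42, -0.37 to 0.023 for Mrps18b, -0.14 to 0.69 for Mrpl24, -0.018 to 0.83 for Mrpl40 and -0.034 to 0.40 for Mrpl45. The cause was not tested.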
